A study of Prunus avium with 18 samples.

Results

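A set of 150 genes of the sweet cherry flower bud was read at its lowest on December 8 and was higher on every other sampling date. They were selected on their measured level in these same libraries. Counts were divided by the library total, multiplied by 1000000 to give CPM, and averaged per date, and of the 18060 genes with a mean of at least 2 CPM on each of the 5 other dates, out of 48133 annotated genes, the 150 with the highest ratio of the lowest other date mean plus 0.5 to the December 8 mean plus 0.5 were taken. The dip itself is therefore no finding, and every December value below is a description with no test. Tests are given only between the 5 other dates, which the rule used through the floor and the lowest of their means.

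The buds came from trees of Prunus avium 'Fertard', a cultivar with very late flowering and a high need of winter cold, grafted on Maxma Delbard 14 rootstock and grown in an orchard. They were collected on October 17, December 8, January 3, January 15, February 12 and March 12 of the winter 2017 to 2018. Each date has 3 replicates, which the submitters describe as separate buds taken from different trees, so that 18 libraries were compared. Total RNA of ground whole buds was sequenced as stranded mRNA libraries, so every value is an average over all tissues of the bud, and a lower level cannot be told apart from a smaller share of the cells that express the gene. October 17 is the onset of dormancy, the next 4 dates fall in endodormancy and March 12 is assigned to ecodormancy in the study, although its forcing tests of that winter put the release from dormancy later than this sampling. In their labels the 3 December libraries are dated December 17, 2012, whereas the series description has December 8 of the 2017 season, and that date is used here. No marker list of a bud tissue could be matched to the gene identifiers, so the tissue label was not checked.

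During endodormancy a bud does not grow even under warm conditions, until enough cold has been received, and in ecodormancy it waits only for warmth. Callose, a glucan laid down at plasmodesmata, narrows the channels between neighbouring cells and is removed by glucanases. Beta glucosidases of glycosyl hydrolase family 1 split glucose from small molecules such as stored hormones, defence compounds and lignin precursors, and ACC oxidase carries out the last step in the making of the hormone ethylene.

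Library totals ranged from 10095600 to 21023379 counts. The 3 libraries of lowest mapping share were replicate 1 of December 8, replicate 2 of January 3 and replicate 2 of February 12. In the 150 genes, replicates 1 and 2 of January 15 and replicate 2 of February 12 stood apart from the other replicates of their dates. Counts of calls per contrast that rest on them are given with and without them. Libraries of one date were further apart than counting error alone gives.

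In the 3 December libraries the 150 genes together took 0.0838% to 0.112% of all counts, against 0.342% to 1.05% in the 15 libraries of the other dates. The December mean of single members ranged from 0.165 to 96.5 CPM with a median of 2.26 CPM, against a median of 17.6 CPM for the mean of the 5 other dates. CPM is not divided by gene length, so that levels are not compared between genes. The ratio that chose the genes ranged from 2.29 to 7.26 with a median of 2.87. The same rule applied to the other dates gave a 150th ratio of 1.63 for October 17, 1.63 for January 3, 1.29 for January 15, 1.60 for February 12 and 2.60 for March 12. A ratio over 2 was met by 232 genes for December 8 and by 296 genes for March 12, against 6 to 87 genes for the 4 remaining dates.

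**Figure D1:**
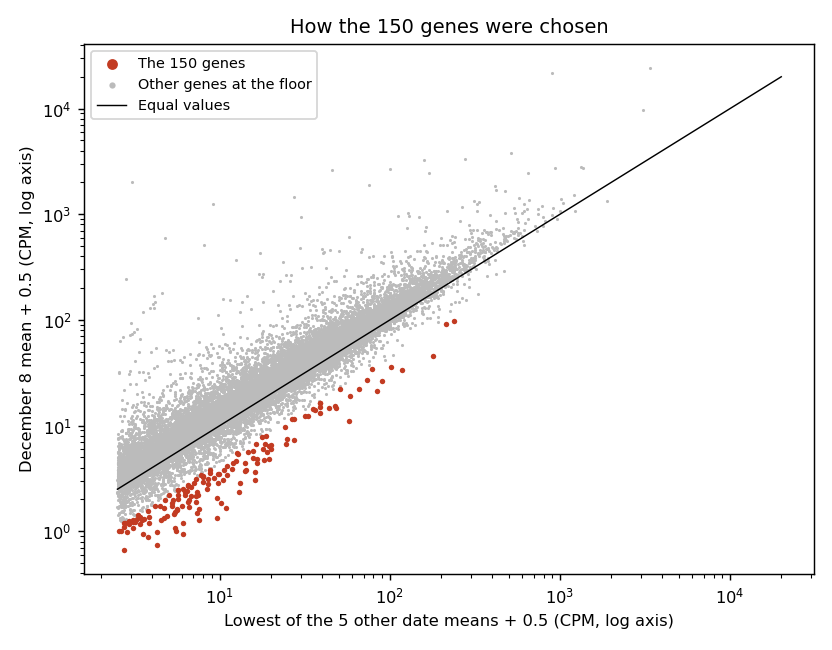
Each point is 1 of the 18060 genes with at least 2 CPM on the 5 other dates, with the lowest of the 5 other date means plus 0.5 on the x axis and the December 8 mean plus 0.5 on the y axis, both in CPM on log axes. The 150 genes (red) are the lower edge of the cloud by construction, at ratios of 2.29 to 7.26.

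The 3 genes just inside the limit were PAV03g0144151, PAV03g0149441 and PAV01g0003191, each at a ratio of 2.29. The first had 7.26 CPM on December 8 and 17.3 CPM on January 3, its lowest other date. The 3 genes just outside were PAV03g0152901 at 2.28, PAV01g0048511 at 2.27 and PAV01g0009611 at 2.26, so the set has no natural border. PAV03g0152901 lies next to the member PAV03g0152911 by identifier, and both had their highest mean on February 12, at 32.3 CPM and 39.8 CPM.

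All 3 December libraries were below all 15 others in 147 of the 150 genes, a separation seen in 6.26% of the 18060 genes at the floor and partly fixed by the rule. The exceptions were PAV04g0198561, PAV06g0296221 and PAV01g0003191, in which a single January 15 or February 12 replicate 1 library was as low as the December libraries. PAV04g0198561 had 0.708 CPM in replicate 1 of January 15, within its December range of 0.636 to 0.815 CPM. The rule was then applied without 1 December library at a time, and the library left out, which had no part in that choice, was read. Replicate 1 of December 8 was below all 15 other libraries in 148 of 150 genes chosen without it (11.8% of all genes at the floor), replicate 2 in 140 of 150 (9.75%) and replicate 3 in 149 of 150 (13.2%). The fold between the lowest other date mean and the library left out had a median of 3.31, 2.33 and 3.31, so the dip was shallower in replicate 2. The lists chosen in this way shared 134, 128 and 136 genes with the 150. The library left out came from the same date and the other dates took part in the choice, so that another winter was not tested.

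**Figure D2:**
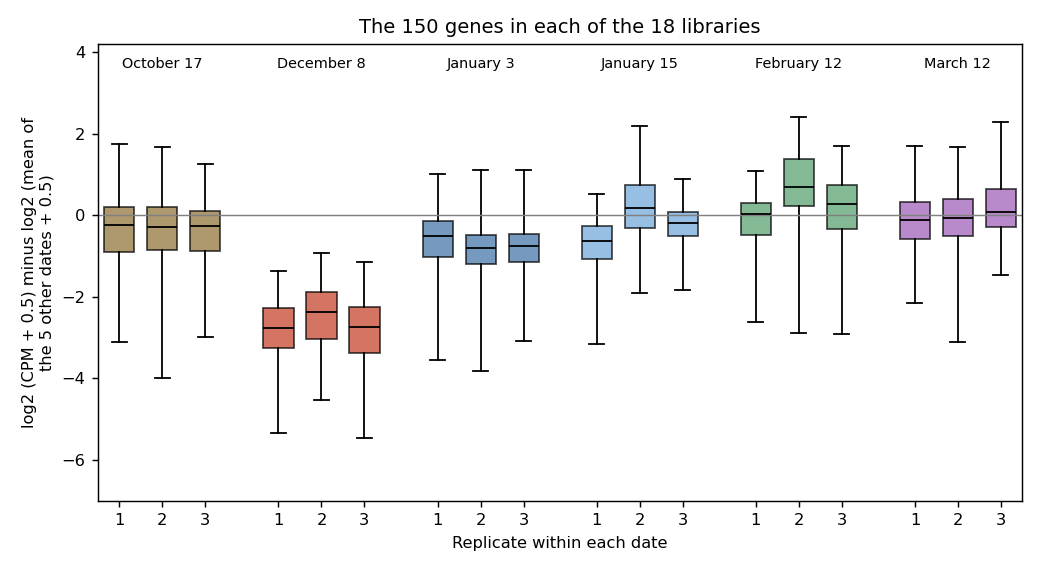
Boxes give, for each of the 18 libraries in calendar order, the median and quartiles over the 150 genes of log2 (CPM + 0.5) minus the log2 of the mean of the 5 other dates plus 0.5, and whiskers run from the lowest to the highest gene. The 3 December boxes lie below all 15 others, and replicate 2 of January 15 and replicate 2 of February 12 lie above the other replicates of their dates.

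The members with the highest ratios have no name in the sources used here. PAV02g0136951, the first, had 13.8, 14.5 and 14.4 CPM on October 17, 0.763, 1.19 and 0.543 CPM on December 8, 9.29, 12.9 and 9.16 CPM on January 3, 5.92, 13.6 and 8.04 CPM on January 15, 7.40, 16 and 8.51 CPM on February 12 and 19.1, 18.7 and 28.1 CPM on March 12. Its 3 December libraries stood far below the rest, and the replicates of January 15 and February 12 overlapped with those of January 3. It rose on March 12 against February 12 by 1.00 ± 0.30 on the log2 scale (± SE, adjusted p = 0.0077, edgeR), and no other contrast between the 5 dates passed the threshold. Its December level rests on 31 counts summed over the 3 libraries, which gives 0.823 CPM with an exact 95% Poisson interval of 0.559 to 1.17 CPM for counting error only.

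PAV05g0259861, at rank 6 by ratio, had 12.3, 11.8 and 9.76 CPM on October 17, 0.572, 2.39 and 1.09 CPM on December 8, 20.0, 11.2 and 11.9 CPM on January 3, 13.6, 24.8 and 18.3 CPM on January 15, 35.3, 61.9 and 52.8 CPM on February 12 and 7.96, 10.1 and 11 CPM on March 12. The February libraries were above all others. The gene rose on February 12 against January 15 (log2 fold change 1.43 ± 0.28, adjusted p = 0.000528) and fell on March 12 against February 12 (-2.42 ± 0.30, adjusted p = 2.03e-06, edgeR). PAV01g0016091, at rank 5 by ratio, had its highest mean in October, with 10.4 CPM on October 17, 0.246 CPM on December 8, 6.78 CPM on January 3, 5.37 CPM on January 15, 3.78 CPM on February 12 and 5.03 CPM on March 12. Each of its December libraries held 3 counts. Of the 8 highest it alone was called lower on March 12 than on October 17 (log2 fold change -1.05 ± 0.29, adjusted p = 0.00512, edgeR).

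Of the other 5 among the 8 highest ratios, PAV04g0197851, PAV01g0063241 and PAV02g0124031 passed the threshold in none of the 5 contrasts. PAV02g0124031 had 4.25, 66.7 and 18.4 CPM on January 15 and 12.7, 68.7 and 33.2 CPM on February 12, with replicate 2 highest and replicate 1 lowest on both dates. PAV03g0178581 rose on February 12 against January 15 (log2 fold change 1.09 ± 0.38, adjusted p = 0.0284, edgeR), where its libraries had 8.57, 34.6 and 20.6 CPM on February 12, against 8.05, 12.6 and 9.87 CPM on January 15. The lowest February library lay inside the January 15 range. The gene was also higher on March 12 than on October 17 (1.05 ± 0.40, adjusted p = 0.0328, edgeR). PAV03g0175381 is described with its neighbour below.

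December levels were low enough to be imprecise in many members. The summed December count ranged from 6 to 3611 with a median of 84, and it was under 30 in 26 members. No member was at 0 in all 3 December libraries, and 3 were at 0 in at least 1. The December mean was under 1 CPM in 37 members and 10 CPM or more in 26. PAV06g0272811, which had the highest December mean, stood at 91.9, 112 and 86.0 CPM on December 8, against 231 to 243 CPM on January 3, its lowest other date. The groups did not overlap, and this member rests on 949 to 1446 counts per December library.

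In all 5 members carry a name in the study's list of genes for transport between and into cells, and 4 of them are beta glucosidases.
Beta glucosidase 36_18 (PAV07g0336551) had 20.8, 17.4 and 20.2 CPM on October 17, 0.509, 1.56 and 0.906 CPM on December 8, 12.7, 9.40 and 15.1 CPM on January 3, 34.2, 116 and 53.8 CPM on January 15, 35.2, 48.7 and 39.8 CPM on February 12 and 6.32, 2.97 and 11.2 CPM on March 12. All libraries of January 15 were above all libraries of January 3, and all libraries of March 12 were below all of October 17. It rose on January 15 against January 3 (log2 fold change 2.40 ± 0.38, adjusted p = 0.000201), fell on March 12 against February 12 (-2.65 ± 0.42, adjusted p = 3.03e-05) and was lower on March 12 than on October 17 (-1.53 ± 0.42, adjusted p = 0.0053, edgeR).

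Beta glucosidase 36_19 (PAV07g0336501) had 17.1, 16.3 and 14.9 CPM on October 17, 0.954, 1.56 and 0.815 CPM on December 8, 5.60, 6.78 and 8.81 CPM on January 3, 11.2, 27.3 and 15.9 CPM on January 15, 18.3, 36.4 and 24.9 CPM on February 12 and 12.8, 12.0 and 32.4 CPM on March 12. It was lower on January 3 than on October 17 (log2 fold change -1.13 ± 0.38, adjusted p = 0.0197) and higher on January 15 than on January 3 (1.32 ± 0.38, adjusted p = 0.0151, edgeR). Both calls were lost without replicate 1 of January 3 (adjusted p = 0.0794 and 0.063, edgeR), and the first was also lost without replicate 2 of January 3 (adjusted p = 0.0529) and the second without replicate 2 of January 15 (adjusted p = 0.116, edgeR). On March 12 against February 12 its log2 fold change of -0.53 ± 0.35 did not pass (adjusted p = 0.217), and without replicate 3 of March 12, which stood above the other replicates, it was -1.14 and passed (adjusted p = 0.00804, edgeR). The difference between the profiles of both genes was not tested.

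Beta-glucosidase 47_4 (PAV04g0187001) is annotated as a coniferin beta-glucosidase, an enzyme that frees coniferyl alcohol, a lignin precursor. It had 7.48, 6.76 and 5.74 CPM on October 17, 0.509, 0.550 and 0.272 CPM on December 8, 2.03, 2.93 and 4.19 CPM on January 3, 6.37, 17.6 and 10.8 CPM on January 15, 8.14, 12.6 and 8.90 CPM on February 12 and 7.55, 8.65 and 11.5 CPM on March 12. The January 3 libraries stood between those of December and all later ones. It fell on January 3 against October 17 (log2 fold change -1.08 ± 0.34, adjusted p = 0.0136) and rose on January 15 against January 3 (1.90 ± 0.33, adjusted p = 0.000397, edgeR). The fall passed the threshold neither without replicate 1 of October 17 (-0.99) nor without replicate 1 of January 3 (-0.84).

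Beta glucosidase 25 (PAV03g0175391) had 74.2, 71.1 and 66.4 CPM on October 17, 6.42, 7.16 and 7.43 CPM on December 8, 20.7, 28.3 and 23.7 CPM on January 3, 53.6, 49.0 and 46.7 CPM on January 15, 51.8, 32.2 and 46.5 CPM on February 12 and 122, 125 and 141 CPM on March 12. Its replicates lay close together on every date but February 12, and the March libraries were the highest. It fell on January 3 against October 17 (log2 fold change -1.48 ± 0.13, adjusted p = 4.86e-08) and rose on March 12 against February 12 (1.53 ± 0.13, adjusted p = 1.3e-08, edgeR). On January 15 against January 3 its log2 fold change was 0.98 ± 0.13 (adjusted p = 3.64e-05, edgeR), just under the limit of 1 on the fold, and it passed that limit with the size factors of DESeq2 (1.00).

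BG_3B (PAV07g0328991) is one of the BG genes, which are annotated as glucanases and which the study names as possible actors in the opening of plasmodesmata. It had 2.06, 2.81 and 2.70 CPM on October 17, 0.445, 1.10 and 0.725 CPM on December 8, 1.97, 1.46 and 3.85 CPM on January 3, 5.02, 8.09 and 6.38 CPM on January 15, 6.84, 13.0 and 7.74 CPM on February 12 and 2.54, 2.25 and 2.67 CPM on March 12. Its December libraries held 7, 12 and 8 counts, and its distance to the levels of October, January 3 and March is small. It rose on January 15 against January 3 (log2 fold change 1.39 ± 0.32, adjusted p = 0.0042) and fell on March 12 against February 12 (-1.92 ± 0.33, adjusted p = 7.26e-05, edgeR).

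Few listed genes of these families could be judged, and most of those that could had no dip. By name, 146 listed genes were taken as glucosidases, and 27 of them were at the floor. These include glucosidase 1 and B-S glucosidase 44_2, which are not named beta glucosidase. Of the 27, 4 are members, and the December mean was the lowest of the 6 dates (a ratio over 1) in 6. The median ratio of the 27 was 0.801, against 0.791 over all genes at the floor. The 2 that had a ratio over 1 without being members were 32_1 at 1.21 and 36_35 at 1.09, named after their values were seen, and the lowest of the 27 was 2_9 at 0.411, with 186 CPM on December 8. Of 132 listed glucanases, 52 were at the floor, 1 is a member and 7 had a ratio over 1, with a median of 0.647. Of all 585 listed transport genes, 187 were at the floor and 14.4% of these had a ratio over 1, against 17.4% of all genes at the floor. All 5 members of the list are among the 130 symplasmic genes at the floor, whereas only 44 apoplastic and 13 vascular genes were at the floor, too few to read anything from having no member there. Beta glucosidases are a large family of similar genes, and how reads that fit several copies were counted is not given in the sources used here.

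A further member, 000169F_QUIVER_OBJg0424631, carries the gene ontology terms for ACC oxidase activity, ethylene biosynthesis and fruit ripening, and was singled out after its values were seen. It had rank 10 by ratio. It had 127, 119 and 124 CPM on October 17, 7.76, 16 and 8.15 CPM on December 8, 71.4, 48.5 and 50.6 CPM on January 3, 40.7, 73.3 and 60.8 CPM on January 15, 157, 376 and 250 CPM on February 12 and 216, 215 and 241 CPM on March 12. The libraries of both January dates overlapped, whereas all February libraries were above all January ones. It rose on February 12 against January 15 (log2 fold change 2.20 ± 0.28, adjusted p = 9.07e-06) and was lower on January 3 than on October 17 (-1.04 ± 0.28, adjusted p = 0.00436, edgeR), and this call was lost without replicate 2 (-0.94) or replicate 3 (-0.96) of January 3. A second gene with the same terms on this contig, 000169F_QUIVER_OBJg0424591, had date means of at most 0.125 CPM.

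**Figure D3:**
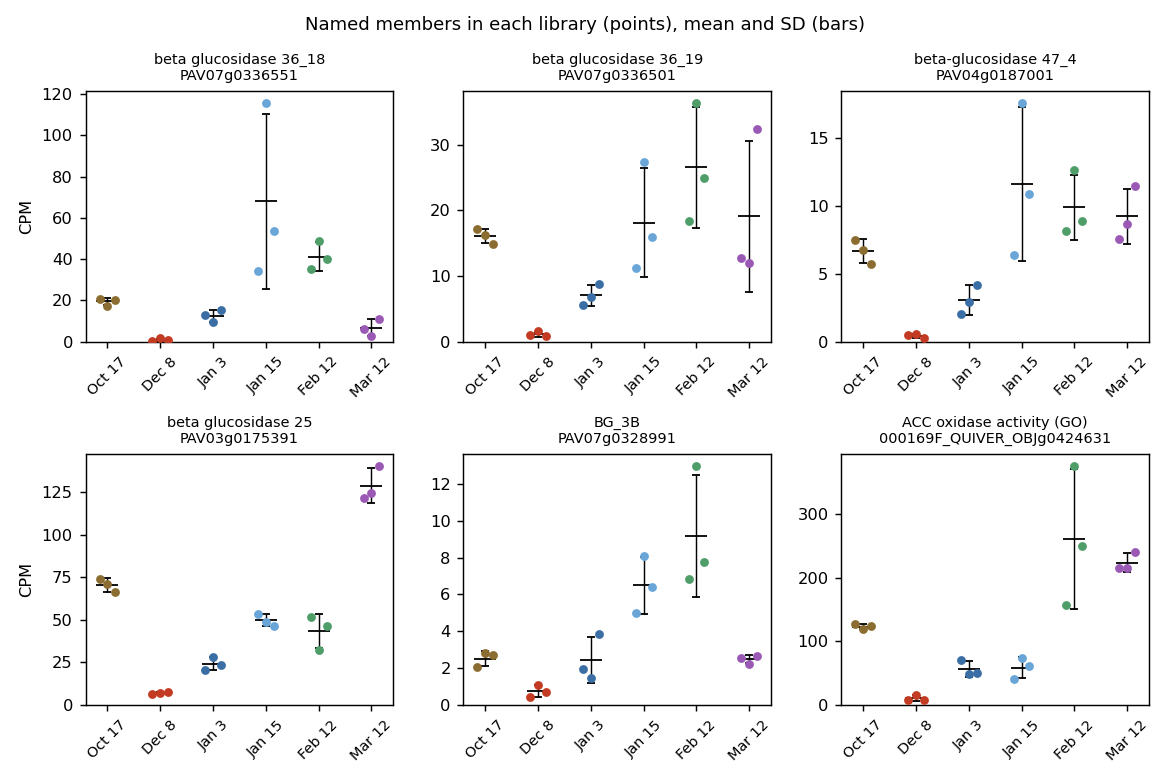
Points give the CPM of 6 members in each of the 3 libraries per date, with the mean (dash) and SD (bars, n = 3), on linear axes from 0 with the dates in calendar order. In all 6 panels the December points are the lowest, while the highest date is January 15 for 36_18 and 47_4, February 12 for 36_19, BG_3B and the gene with the ACC oxidase term, and March 12 for beta glucosidase 25.

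Some members sit side by side. By the order of identifiers, which is all that is known of their position here, 16 members form 7 groups of neighbours within 5 genes of each other. The matching share for other genes at the floor was not worked out, so whether 16 is many is not known. The largest groups have 3 members each. On contig 000341F, genes OBJg0439981, OBJg0439991 and OBJg0440001 follow each other without a gap, and the outer pair carry terms for a protein kinase in the membrane, OBJg0439981 also for polysaccharide binding. Gene 000341F_QUIVER_OBJg0439981 had 26.6, 26.7 and 24.7 CPM on October 17, 3.88, 7.34 and 4.26 CPM on December 8, 30.1, 21.5 and 22.9 CPM on January 3, 17.4, 16.5 and 21.7 CPM on January 15, 21.8, 36.8 and 31.6 CPM on February 12 and 21.3, 23.4 and 22.4 CPM on March 12. Apart from December its libraries ranged from 16.5 to 36.8 CPM, and no contrast between the 5 other dates passed the threshold in any of the 3 genes. In OBJg0439991 the December mean was 2.36 CPM and the other date means were 9.30 to 15.1 CPM, and in OBJg0440001 they were 14.6 CPM and 38.1 to 58.4 CPM. The genes on either side had no dip, with 32.7 CPM on December 8 and 24.7 to 38.0 CPM on the other dates in OBJg0439971.

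On PAV05, members PAV05g0253741, PAV05g0253761 and PAV05g0253771 had December means of 15.7, 2.43 and 3.29 CPM. PAV05g0253761 stayed between 7.41 and 9.04 CPM on the 5 other dates, the narrowest range of the 3, and no contrast passed the threshold in any of the 3. The gene between them, PAV05g0253751, is just outside the set at a ratio of 2.19, and its December libraries at 1.21 to 3.40 CPM were below all 15 others at 4.31 to 13.4 CPM. A run of 4 neighbours thus shared the low December reading.

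On PAV07, the 2 beta glucosidases 36_19 and 36_18 lie 5 identifiers apart with 2 further expressed genes between them. Both fell short of the floor of 2 CPM and are given for their place alone. PAV07g0336511 missed the floor only on January 3, with a mean of 1.96 CPM. PAV07g0336541 missed it on October 17, January 3 and March 12. PAV07g0336511, listed as a cytochrome P450, had 0.181 to 0.459 CPM on December 8, against 1.60 to 17.7 CPM in the 15 other libraries. PAV07g0336541, listed as beta glucosidase 2_8, had 0 to 0.0917 CPM on December 8, which is 2 counts in all, against 0.739 to 13.0 CPM in the 15 other libraries. The next gene outward, PAV07g0336491, had no such dip, with 121 to 136 CPM on December 8, against 104 to 174 CPM elsewhere. On PAV03, beta glucosidase 25 is next to PAV03g0175381, at rank 8 by ratio, which had 2.03, 2.11 and 1.45 CPM on December 8, against 10.3 to 46.2 CPM in the 15 other libraries. That gene rose on January 15 against January 3 (log2 fold change 1.29 ± 0.24, adjusted p = 0.000708, edgeR), while no contrast into or out of March passed the threshold in it. Whether neighbours share reads was not tested.

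On the other dates the 150 genes took different courses. The highest of the 5 other date means fell on February 12 in 74 members (49.3%, against 17.2% of genes at the floor), on March 12 in 31, on October 17 in 23, on January 15 in 19 and on January 3 in 3 (2.00%, against 22.7%). The February means rest in part on replicate 2, the highest February library in 129 members. In replicates 1 and 3 the 150 genes took 0.626% and 0.756% of counts, against 0.689% to 0.805% on March 12. The count of 74 was not worked out without replicate 2. The lowest of the 5 other means fell on January 3 in 67 members (44.7%, against 23.9%), on October 17 in 40, on January 15 in 20, on March 12 in 14 and on February 12 in 9. The highest and lowest of the 5 means differed by less than 2-fold in 21 members (14.0%, against 61.3%) and by 5-fold or more in 41 (27.3%, against 6.58%). The rule used the 5 date means through the floor and through the lowest of them. The shares by highest date, by lowest date and by fold are therefore a description.

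Relative to December, with 0.5 CPM added to both, the median member was 4.45 times as high on October 17, 3.54 times on January 3, 5.10 times on January 15, 7.75 times on February 12 and 5.41 times on March 12. Members were also grouped by the date of their highest mean, so the date at which each group peaks is fixed by the grouping. In the 74 genes with a February maximum the median mean was 10.6 CPM on October 17, 1.96 CPM on December 8, 11.2 CPM on January 3, 18.2 CPM on January 15, 34.6 CPM on February 12 and 15.7 CPM on March 12. In the 31 genes with a March maximum it was 19.8 CPM on October 17, 1.84 CPM on December 8, 7.43 CPM on January 3, 13.1 CPM on January 15, 12.0 CPM on February 12 and 37.7 CPM on March 12. In the 23 genes with an October maximum it was 32.1 CPM on October 17, 2.98 CPM on December 8 and 14.2 to 16 CPM on the 4 later dates.

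**Figure D4:**
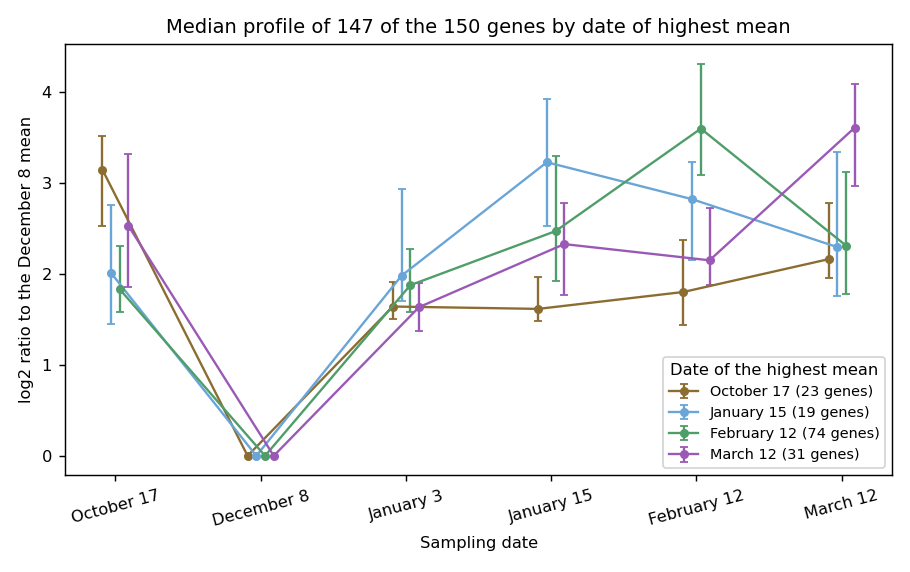
Lines give the median over genes of the log2 ratio of each date mean to the December 8 mean (0.5 CPM added to both), and bars the quartiles, for members grouped by the date of their highest mean, and the 3 genes highest on January 3 are left out. All lines meet at 0 on December 8 by construction. The date of the highest mean defines each group, so the date of its peak is fixed by the grouping. The group highest on February 12 (74 genes) is higher on each date from January 3 to February 12, and the group highest on October 17 (23 genes) stays between 3.07 and 4.48 times its December level after December.

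Between the 5 other dates the counts were tested with edgeR, with adjustment over 26248 genes, and calls needed both an adjusted p below 0.05 and a change of more than 1 on the log2 scale. In all, 112 of the 150 members were called in at least 1 of the 5 contrasts (74.7%, against 28.4% of genes at the floor and 40.8% of all genes tested) and 38 in none. The rule had used the floor on each of these dates and the lowest of the 5 means. These shares are therefore not independent of how the genes were chosen. On January 3 against October 17, across the December dip, 12 members were higher (6.11% of all genes tested were) and 36 lower (11.6%), with a median log2 fold change of -0.20, so the shift was to the lower side. Without 1 library the count of higher members dropped to 7, for replicate 2 or 3 of October 17 or replicate 1 of January 3. Here and below, shares over all genes are given for the fit to all libraries alone. PAV03g0161811 was the most raised, with 46.6, 30.9 and 36.9 CPM on January 3, against 7.01, 3.57 and 7.61 CPM on October 17 (log2 fold change 2.74 ± 0.40, adjusted p = 1.64e-05, edgeR). In December it stood at 1.08, 2.29 and 0.996 CPM. PAV06g0275851, next in size at 2.31 ± 0.17, was one of the 3 members with their maximum on January 3. PAV05g0251071 fell the most, with 4.99, 4.39 and 6.25 CPM on January 3, against 34.9, 37.6 and 28.0 CPM on October 17 (-2.62 ± 0.21, adjusted p = 1.65e-08, edgeR), and PAV01g0048601 fell by 2.42 ± 0.19.

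On January 15 against January 3, 32 members were higher (2.91% of all genes tested were) and 3 lower (1.49%), with a median log2 fold change of 0.47, against -0.02 over all genes tested. Of the genes at the floor, which have levels more like those of the members, 1.98% were higher. The count rests on the replicates of January 15, being 51 without replicate 1 and 16 without replicate 2, and the lower members were then 6 without replicate 2. PAV01g0016491 had the largest fold, with 4.25, 109 and 29.8 CPM on January 15, against 3.08, 2.47 and 4.45 CPM on January 3 (log2 fold change 3.82 ± 0.85, adjusted p = 0.0031, edgeR). Its lowest January 15 library lay inside the range of January 3. PAV01g0008731, the member with the highest counts among those that peaked on January 15, had 351, 850 and 510 CPM on January 15, against 157, 199 and 181 CPM on January 3, with no overlap (1.61 ± 0.24, adjusted p = 0.000101, edgeR). On December 8 it stood at 43.6, 52.3 and 38.9 CPM. The 3 lower members were PAV04g0186491 (-1.59 ± 0.24), PAV06g0275851 (-1.28 ± 0.16) and PAV01g0003191 (-1.29 ± 0.43), the last of which lost its call when any single one of 5 libraries was left out (adjusted p from 0.0508 to 0.25, edgeR).

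On February 12 against January 15, 38 members were higher (7.1% of all genes tested were) and 2 lower (3.9%), with a median log2 fold change of 0.46, against 0.01 over all genes tested. The count of higher members was 60 without replicate 2 of January 15, 25 without replicate 2 of February 12 and 24 without the 3 libraries of lowest mapping share. PAV05g0244471 had the largest rise, with 80.6, 218 and 146 CPM on February 12, against 11.3, 24.4 and 17.8 CPM on January 15 (log2 fold change 3.08 ± 0.34, adjusted p = 1.93e-06, edgeR). PAV03g0152911 followed at 2.95 ± 0.48. The lower members were PAV06g0302371 (-2.03 ± 0.67), in which replicate 2 of January 15 had 74.9 CPM beside 9.59 and 28.8 CPM, and PAV07g0352511 (-1.08 ± 0.14). Without replicate 2 of January 15 neither of them was called, and PAV06g0302371 also lost its call without replicate 1 or 3 of February 12 (adjusted p = 0.0808 and 0.0888, edgeR). In turn the lower count was 6 without replicate 1 of January 15 and 7 without replicate 2 of February 12.

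On March 12 against February 12, 48 members were lower (9.66% of all genes tested were) and 20 higher (14.7%), with a median log2 fold change of -0.42. The count of lower members was 37 without replicate 2 of February 12 and 55 without replicate 1 of that date. Without the 3 libraries of lowest mapping share it was 36. The higher members were then 23, 17 and 23, in the same order. PAV07g0317901 showed the largest fall, with 6.65, 6.67 and 10.4 CPM on March 12, against 55.3, 98.6 and 85 CPM on February 12 (log2 fold change -3.39 ± 0.29, adjusted p = 1.66e-08, edgeR), and PAV01g0071141 fell by 2.77 ± 0.40. PAV07g0352511 showed the largest rise, with 118, 106 and 106 CPM on March 12, against 5.36, 4.42 and 4.35 CPM on February 12 (4.49 ± 0.13, adjusted p = 2.89e-14, edgeR). In that gene December stood at 1.08, 1.28 and 1.72 CPM, below all libraries of February 12, and its January 15 libraries ranged from 8.56 to 12.3 CPM. PAV05g0230001 rose by 2.43 ± 0.16 on the same step.

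On March 12 against October 17, the 2 ends of the series, 34 members were higher (13.2% of all genes tested were) and 11 lower (7.73%), and 105 passed in neither direction. The count of lower members was 6 without replicate 2 of March 12. PAV03g0164491 was the most raised, with 54.7, 64.2 and 54.9 CPM on March 12, against 4.67, 1.98 and 2.08 CPM on October 17 (log2 fold change 4.37 ± 0.59, adjusted p = 6.83e-06, edgeR). PAV01g0048601 was the most lowered, at -2.27 ± 0.19, and PAV04g0207631 followed at -1.63 ± 0.17. In PAV01g0000371, the member with the highest counts among those that peaked in October, the libraries had 272, 277 and 289 CPM on March 12, against 437, 398 and 345 CPM on October 17. These did not overlap, but the log2 fold change of -0.50 ± 0.14 was under the limit (adjusted p = 0.00666, edgeR).

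**Figure D5:**
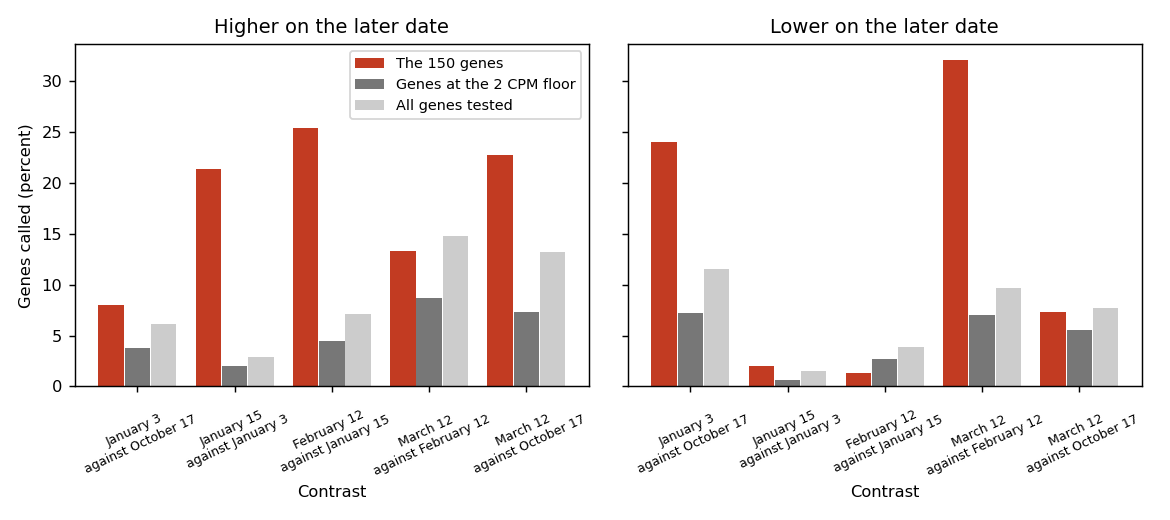
Bars give the percentage of genes called higher (left) and lower (right) on the later date in the 5 contrasts that leave out December, for the 150 genes, the 18060 genes at the floor of 2 CPM and all 26248 genes tested. The choice of the 150 genes used the lowest of the 5 date means, so the contrasts are not independent of it. The members exceed both backgrounds in every contrast and direction, by most among the lower genes of March 12 against February 12 (32.0%, against 7.04% and 9.66%), except among the lower genes of February 12 against January 15, the higher genes of March 12 against February 12 and the lower genes of March 12 against October 17.

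Within a date, the members tended to move together from library to library, a pattern the rule did not use on the 5 other dates. On January 15, replicate 2 was the highest of the 3 libraries in 117 of the 150 members (78.0%, against 29.9% of genes at the floor). Replicate 1 was the lowest in 126 (84.0%, against 31.7%). The median member was 1.80 times as high in replicate 2 as in replicate 1 of that date, against 0.968 times for the median gene at the floor. In this direction 68 of the 150 members differed by more than 2-fold, against 2.07% of genes at the floor. On February 12, replicate 2 was the highest in 129 members (86.0%, against 24.5%), at 1.74 times the level of replicate 1 in the median member, against 0.916 times for the median gene at the floor. On January 3, replicate 1 was the highest in 95 members (63.3%, against 32.6%), and on March 12 replicate 3 in 78 (52.0%, against 31.2%). October 17 showed the least of this, its top library being the highest in 63 members (42.0%, against 33.5%).

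Among the December libraries, replicate 2 was the highest in 107 members (71.3%, against 51.3% of genes at the floor). It was at 1.29 times the level of replicate 1 in the median member, against 1.04 times for the median gene at the floor. The share of counts taken by the 150 genes was 0.0872%, 0.112% and 0.0838% in the 3 December replicates, 0.403%, 0.774% and 0.538% in those of January 15 and 0.626%, 1.05% and 0.756% in those of February 12. The library with the highest share on February 12 is also one of the 3 of lowest mapping share, while the one on January 15 is not and was the deepest library. The part of mapping share, depth or the state of single trees in these differences was not tested. Whether a replicate number stands for the same tree on each date is not stated.

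The members lie all over the genome by their identifiers. PAV01 held 37 of the 150 (24.7%, against 21.3% of genes at the floor), PAV03 held 22 (14.7%, against 10.3%), PAV04 held 19 (12.7%, against 9.03%) and PAV06 held 12 (8.00%, against 13.3%), and 8 lie on contigs outside the numbered groups. Of these 8, 7 have gene ontology terms. Apart from the genes described above, 000051F_QUIVER_SUBSEQ_1-129044_OBJg0415381 has the term for a developmental process, with 22.4 CPM on October 17, 1.95 CPM on December 8 and 5.14 to 12.6 CPM on the 4 later dates, and 000256F_QUIVER_OBJg0431541 and 000124F_QUIVER_SUBSEQ_644612-846607_OBJg0421231 have terms for a membrane and for protein binding, all 3 named after their values were seen. For 138 members neither a name nor a term was found in the sources used here, so that no function can be assigned to most of the set.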

How the data were processed

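The deposited files hold raw read counts per gene, which the authors made by trimming with Trimmomatic 0.36, aligning to the 'Regina' genome v1 with STAR and counting with HTSeq (the versions of both are not given in the sources used here). All 18 libraries were used, with totals of 10095600 to 21023379 counts (medians per date 11041119 to 15536710). Members were chosen on CPM. Counts were tested in R 4.3.3 with edgeR 4.0.16 (quasi-likelihood test after TMM normalisation, with 1 coefficient for each date, 12 residual degrees of freedom and Benjamini-Hochberg adjustment). The 26248 genes whose mean count reached 3 and that had zeros in no more than 75% of libraries were kept. The SE of a log2 fold change is its size over the square root of F. The code was tested on simulated data. Python 3.11.15 was used for tables and plots, with pandas 2.3.3, numpy 2.4.6 and matplotlib 3.10.9.

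The members and lists were chosen with earlier results of these data known. Genes are named by rule: the 8 highest ratios, members in the study's transport list, 3 genes on each side of the limit, the 2 largest calls per contrast and direction, the member of highest mean CPM per date of maximum, and the largest neighbour groups. Others are marked. Names and gene ontology terms come from supplementary tables, of which the copy of the ontology table covers 1863 genes. Identifiers of the RefSeq gene table matched 0 genes, and sequences were not used here. Replicates come from different trees. The p-values use a spread between replicates that was estimated jointly over all dates, December included, and not from the compared dates alone. Alternatives were other scalings, filters, pseudocounts, floors, DESeq2 1.42.0, a replicate block, the compared dates alone, no fold limit and leaving out libraries.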

Additional observations from a re-analysis of the deposited data

How the results depend on the processing

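Another scaling, pseudocount, floor or a median per date kept 109 to 144 of the 150 genes, and leaving out 1 library kept 128 to 150. Of the named genes, 49 log2 fold changes were put through the alternatives, which gave 1274 values. They were the 2 largest calls per contrast and direction, and all contrasts of the transport list members and the gene with the ACC oxidase term. No call among them reversed: 1240 values kept their side of the threshold, 20 lost it and 14 passed it. A change of sign was not counted where there was no call. Reported calls of the other named genes were not tested in this way. Of 295 counts under alternatives, 273 were within 1.5 times the count reported. Leaving out 1 library gave 7 to 13 members higher on January 3 than on October 17, 16 to 51 higher and 2 to 6 lower at January 15 against January 3, 25 to 60 higher and 0 to 7 lower on February 12 than on January 15, and 6 to 11 lower on March 12 than on October 17. Without the 3 libraries of lowest mapping share, 24 members were higher and 7 lower on February 12 than on January 15, and with the compared dates alone 1 was lower. With no fold limit, the step from January 3 to January 15 had 51 higher and 9 lower, 61 higher and 8 lower on February 12 than on January 15, and 25 lower on March 12 than on October 17. Shares over all genes were not worked out for these alternatives, so the counts show only how the number of members moved. The cause was not tested. December levels under 1 CPM rest on few counts and limit the precision of the ratio.

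The replicate numbers were not used to pair the samples, since no source ties them to a tree and the correlation of deviations was over 0.1 in only 8 of 45 same-number pairs (-0.45 to 0.56). The highest values were those of January 15 with February 12, at 0.53 for replicate 1 and 0.56 for replicate 2, and 7 of 18 libraries correlated best with their own number. With a replicate block, 30 members were higher on January 15 than on January 3, 38 higher on February 12 than on January 15 and 9 lower on March 12 than on October 17.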
